A study of Mus musculus with 6 samples.

Results

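The constitutive proteasome genes of M2-polarized mouse macrophages (Mφs) were examined by mRNA sequencing after blockade of a tRNA fragment. The 41 genes were the protein-coding rows of the count table whose symbol begins with Psma, Psmb, Psmc, Psmd or Psme followed by a number. The interferon-inducible subunits Psmb8, Psmb9 and Psmb10 were left out, and at least 10 reads were required in at least 3 of the 6 libraries. The symbol rule matched 42 genes, and Psmb11, a thymus-specific subunit, was the 1 that did not reach the read minimum, with 1 read in αGlu 3 and 0 in the other 5 libraries. The table held 41549 genes, of which 21859 were protein-coding. All 41 were among the 11933 genes tested, and the rule used no difference between the groups.

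Bone marrow-derived macrophages were grown with M-CSF from the marrow of adult wild-type C57Bl/6 N mice of both sexes. While still unpolarized (M0), they were transfected with a lipid carrier and an antisense oligonucleotide against 5′tRF-Glu(CTC), which is cut from the 5′ part of a tRNA for glutamate, or with a control oligonucleotide. Both groups then received IL-4 and IL-13, which drive the anti-inflammatory M2 state, and are named αGlu and Ctr, with 3 libraries each. The study describes replicates of primary cells as preparations from different animals, which the labels do not state, so the p-values measure the spread between these libraries only.

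The antisense and the stretch of the fragment that it targets are shown because they define the αGlu group. The capitals mark the 20 of the 21 printed bases that pair with the antisense. The study reports longer fragments in islet cells, so the printed bases do not give the length of the fragment.
antisense oligonucleotide: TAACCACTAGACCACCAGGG
target fragment: tCCCTGGTGGTCTAGTGGTTA

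The proteasome degrades proteins that carry ubiquitin chains. Its 20S core is a barrel of alpha rings, which gate the entrance, and beta rings, of which Psmb5, Psmb6 and Psmb7 encode the proteolytic subunits. The 19S regulatory particle caps the core, with a base whose ATPases unfold the substrate and a lid that removes ubiquitin, while alternative activators such as PA28 (Psme1 and Psme2, or Psme3) and PA200 (Psme4) open the core without ubiquitin recognition. In macrophages, interferons exchange the proteolytic subunits for Psmb8, Psmb9 and Psmb10 to form the immunoproteasome.

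By role, the 41 genes comprised 8 alpha genes, 4 structural and 3 catalytic beta genes, 6 ATPases, 3 other base subunits, 8 lid subunits, 3 assembly chaperones of the 19S particle and 5 activators. The remaining gene, Psmc3ip, fits the rule by its symbol but encodes a recombination factor and not a proteasome subunit. Psma8, an alpha subunit typical of testis, was counted with the alpha genes. Both were near the detection range, at 1.16 to 1.80 CPM for Psmc3ip and 1.21 to 1.80 for Psma8, whereas the other 39 genes averaged at least 10 CPM. CPM here are counts scaled to a common library size after adjustment by the trimmed mean of M-values (TMM).

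Total counts ranged from 17912831 to 30386653 per library. All 8 macrophage markers were above 1 CPM and summed to between 11849 and 18784 CPM per library, while 6 lymphocyte markers summed to at most 0.28 and 8 neutrophil markers to at most 5.93 CPM. The macrophage markers moved apart in αGlu 2 and 3. Cd14 was at 17.3 to 30.1 CPM in Ctr and 12.4 in αGlu 1 but at 293 and 240 CPM in αGlu 2 and 3, and Itgam was at 425 to 534, 324, 1035 and 1305 CPM in the same order, while Cd68 was at 1809 to 2063, 1990, 1237 and 1144 CPM. The 6 fibroblast markers summed to 7.18 CPM in Ctr 1 and to at most 2.87 elsewhere, and the 6 mast cell and basophil markers to 1.48 and 1.03 CPM in αGlu 2 and 3 and to at least 2.97 in the others. The part of these markers in the results was not tested. αGlu 1 stood apart from its group. Across genes, its log2 CPM correlated at a Pearson r of 0.929 with both αGlu 2 and αGlu 3, which correlated at 0.992 with each other, and at 0.966 to 0.982 with the Ctr libraries. Ctr 1 was low in interferon-response genes, since 16 such genes summed to 974 CPM there, compared with 4810 and 5115 in Ctr 2 and 3 and with 6330, 5514 and 4693 in αGlu 1, 2 and 3. Results that rest on these libraries are therefore given with and without them.

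The proteasome genes as a group differed little between αGlu and Ctr Mφs. No proteasome gene passed edgeR's quasi-likelihood test at a Benjamini-Hochberg adjusted p under 0.1 with an absolute log2 fold change above 1, and none of the 11933 genes did (0% called). The smallest adjusted p of a proteasome gene was 0.160, compared with 0.149 over all genes. For 40 of the 41 genes the log2 fold change lay within 0.43 of zero. The median log2 fold change was 0.08, compared with 0.02 over all genes tested, and the median absolute value was 0.11, compared with 0.24. A total of 26 genes had a positive and 15 a negative fold change. In such bulk RNA, a change in the number of cells of a kind and a change in RNA per cell cannot be told apart.

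At an unadjusted p under 0.05 there were 7 of the 41 genes, or 17.1%, and 24.7% of all genes tested. Psmc5, Psmc6, Psmd4, Psmd10, Psme3 and Psme4 were the 6 with higher values in αGlu, or 14.6% beside 12.7% of all genes. Psma4 was the 1 with lower values, or 2.44% beside 11.9%. Without an overlap between the groups there were 13 genes, or 31.7% beside 30.2% of all genes. In 9 of them the αGlu libraries were the higher ones (background 14.2%), and in 4 the lower ones (background 15.9%). The 9 were Psma3, Psmb4, Psmc2, Psmc5, Psmc6, Psmd4, Psmd10, Psme3 and Psme4, and the 4 were Psma4, Psmd2, Psmd7 and Psmd12. At an unadjusted p under 0.05, limma-voom gave 5 genes (background 26%) and DESeq2 gave 7 (background 19.8%). Limma-voom called none with the fold limit, and DESeq2 called 1, Psmd10, with an adjusted p of 0.022 (background 8.13%). Without a fold limit, DESeq2 had 4 genes at an adjusted p under 0.1, Psma4, Psmc6, Psmd10 and Psme4 (background 15.8%). On simulated data, a larger share of DESeq2's calls than of edgeR's was false, as given under the processing of the data. Those data were drawn from edgeR's own estimates of spread and held no library like αGlu 1. They therefore cannot tell whether the calls of DESeq2 given here are false.

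The number of proteasome genes that passed depended on αGlu 1. In that library 15 of the 41 genes lay within the range of the Ctr libraries, 13 above and 13 below it. In αGlu 2 and 3 together, 21 genes lay above the Ctr range (background 33.7%) and 7 below (background 32.2%), or 28 genes and 68.3% outside it, beside 65.9% of all genes. Without αGlu 1, Psmd10 and Psme2b passed edgeR's quasi-likelihood test with its fold limit, against 18.6% of all genes. With no fold limit 19 of 41 genes, or 46.3%, had an adjusted p under 0.1, close to the 49.1% of all genes, in a combination of threshold and libraries that was chosen after the data had been seen. Of these, 15 were higher in αGlu (36.6%, background 23.5%) and 4 were lower (9.76%, background 25.6%), and whether these shares differ was not tested. Every adjusted p without αGlu 1 that is given below for a single gene has the same limit. It comes from libraries chosen after the data had been seen, where 49.1% of all genes were under 0.1. Leaving out Ctr 1 instead left Psma4 as the 1 gene at an unadjusted p under 0.05 (background 14%) and none past the test.

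**Figure D1:**
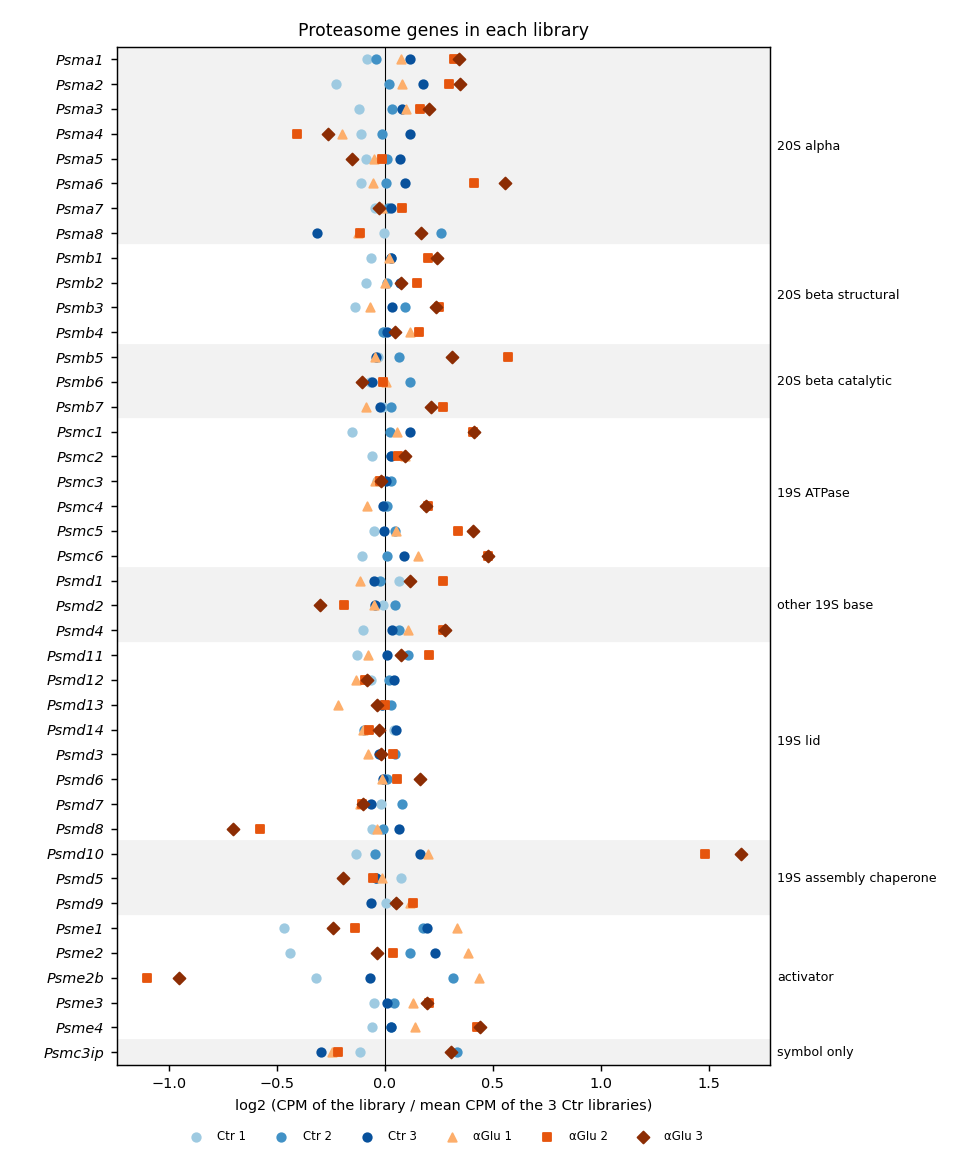
The plot shows log2 of each library's CPM over the mean of the 3 Ctr libraries for the 41 proteasome genes, ordered by role, with circles for Ctr and a triangle, a square and a diamond for αGlu 1, 2 and 3. Most genes lie within 0.5 of zero, Psmd10 in αGlu 2 and 3 lies far to the right, and αGlu 1 lies among or near the Ctr points.

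**Figure D2:**
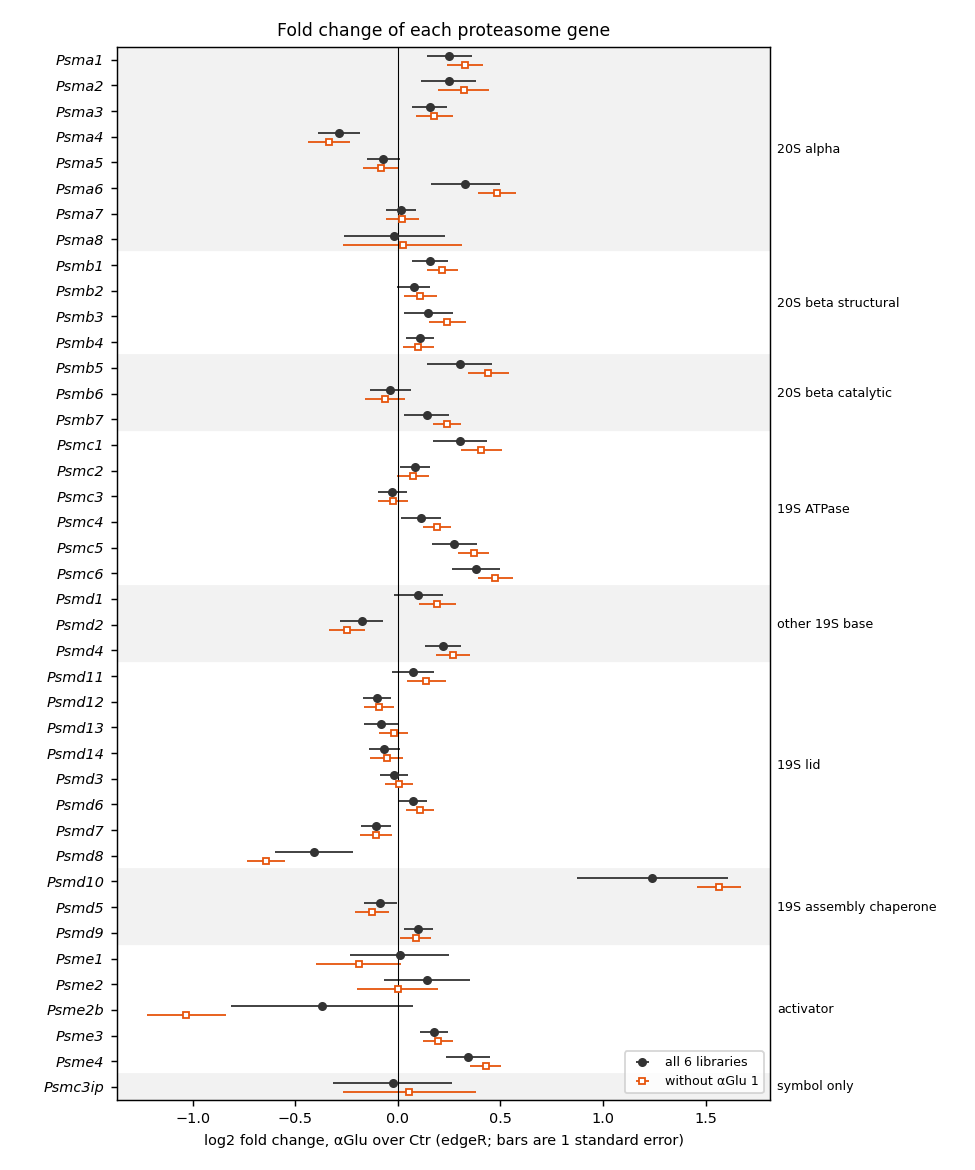
The plot shows the edgeR log2 fold change of each gene, αGlu over Ctr, with 1 standard error, for all 6 libraries (filled circles) and without αGlu 1 (open squares). Psmd10 has the highest value (1.24) and Psmd8 the lowest (-0.41), and leaving out αGlu 1 moves Psme2b from -0.37 to -1.03.

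The size of the pool depended on the scale. The summed TPM (transcript shares corrected for gene length, on a common total) of the 41 genes was 4959, 5376 and 5405 in Ctr and 5589, 5992 and 6002 in αGlu, without overlap. The proteasome genes took 0.401% to 0.434% of the reads in Ctr and 0.431% to 0.477% in αGlu. After TMM scaling, which corrects for differences in library composition, the summed CPM were 4049, 4450 and 4466 in Ctr and 4428, 4568 and 4465 in αGlu, and the groups overlapped. When scaled by library size alone, 34 genes had a positive log2 fold change, with a median of 0.17 beside 0.10 over all genes. With that scaling Psma5, Psma8, Psmb6, Psmc3, Psmc3ip, Psmd3, Psmd13 and Psmd14 turned from slightly negative to slightly positive, and the median of all genes moved up with them.

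Transcript levels per length spanned a wide range. In Ctr, Psmb6 had the highest level, with 410 ± 26 TPM (SD, n = 3), followed by Psme2 at 361 ± 78.3, Psme1 at 333 ± 75.1, Psmd8 at 304 ± 10.3 and Psmb5 at 279 ± 9.92 TPM. Psmb6 and Psme2 overlapped in their spread, as did Psme2 with Psme1 and Psme1 with Psmd8. The median gene was at 90.5 TPM, and the lowest subunit other than Psma8 was the lid subunit Psmd11, at 29.8 ± 1.94 TPM. In αGlu the levels of the leading genes were 424 ± 8.73 for Psmb6, 421 ± 55.5 for Psme2, 354 ± 68.3 for Psme1, 242 ± 55.4 for Psmd8 and 365 ± 81.3 TPM for Psmb5. The order of the 40 genes other than Psmc3ip was nearly constant among Ctr libraries, with a Spearman rho of 0.979 to 0.989 across genes. It was 0.974 to 0.992 between αGlu 1 and the Ctr libraries, 0.901 to 0.934 between αGlu 2 or 3 and the Ctr libraries, and 0.994 between αGlu 2 and 3. These correlations are across genes of the same libraries and describe order only.

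**Figure D3:**
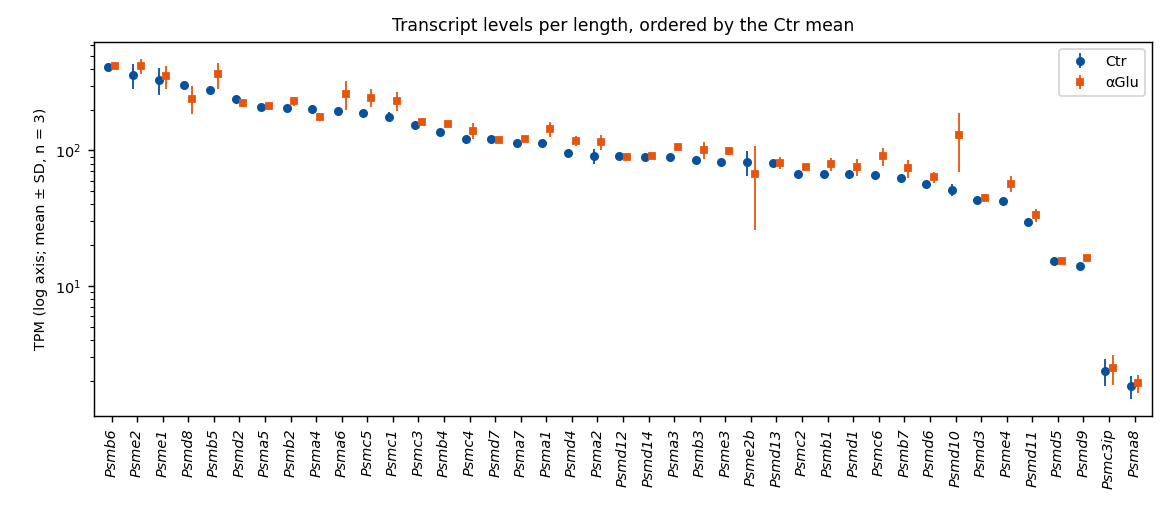
The plot shows mean TPM ± SD (n = 3) of each proteasome gene in Ctr and αGlu on a log axis, in the order of the Ctr mean. Levels run from 410 TPM for Psmb6 to 1.81 TPM for Psma8, and Psmd10 shows the widest gap between the groups.

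Promoters were examined for 34 of the 41 genes found in a RefSeq table of GRCm38.p6, from 250 bases before to 50 bases after the start of the gene. They are shown for the 3 genes with the smallest p and for Psme1, as an interferon-inducible gene, with the capitals marking a motif. The motifs were searched on both strands. The capitals are the ETS core CCGGAA in Psmd10, the antioxidant response element core TGACNNNGC in Psmc6 and Psme4, to which Nfe2l1, a known regulator of proteasome genes, can bind, and the interferon-stimulated response element in Psme1, searched as GAAA followed after 2 bases by GAAA. In Psmc6, Psme4 and Psme1 the capitals are the motif read from the other strand.
Psmd10, chrX:140956662-140956961, reverse strand: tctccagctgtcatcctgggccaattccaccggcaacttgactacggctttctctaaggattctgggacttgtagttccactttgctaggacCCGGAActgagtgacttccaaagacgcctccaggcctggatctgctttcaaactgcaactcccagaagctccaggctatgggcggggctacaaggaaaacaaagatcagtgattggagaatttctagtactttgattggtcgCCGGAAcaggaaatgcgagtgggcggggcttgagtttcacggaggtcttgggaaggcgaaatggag
Psmc6, chr14:45329574-45329873, forward strand: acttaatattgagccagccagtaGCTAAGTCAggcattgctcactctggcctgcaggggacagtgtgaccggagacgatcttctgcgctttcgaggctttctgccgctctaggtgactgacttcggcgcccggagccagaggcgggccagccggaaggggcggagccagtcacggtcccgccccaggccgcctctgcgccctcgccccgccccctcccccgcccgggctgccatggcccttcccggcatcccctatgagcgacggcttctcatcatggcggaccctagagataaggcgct
Psme4, chr11:30771525-30771824, forward strand: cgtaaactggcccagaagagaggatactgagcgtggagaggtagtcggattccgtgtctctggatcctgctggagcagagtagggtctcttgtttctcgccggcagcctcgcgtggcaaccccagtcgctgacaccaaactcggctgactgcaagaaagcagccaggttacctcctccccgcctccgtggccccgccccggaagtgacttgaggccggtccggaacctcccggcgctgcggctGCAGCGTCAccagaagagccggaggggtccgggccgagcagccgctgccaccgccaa
Psme1, chr14:55578244-55578543, forward strand: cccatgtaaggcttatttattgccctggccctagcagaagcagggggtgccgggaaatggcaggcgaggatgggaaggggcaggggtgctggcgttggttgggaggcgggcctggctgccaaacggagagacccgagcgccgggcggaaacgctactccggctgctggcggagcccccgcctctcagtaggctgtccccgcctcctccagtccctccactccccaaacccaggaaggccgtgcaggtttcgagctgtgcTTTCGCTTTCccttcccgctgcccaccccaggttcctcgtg

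The ETS core was in 18 of the 34 promoters, or 52.9%, compared with 14.9% of all 32851 promoters and 33.1% of the 9395 tested genes with a promoter. The antioxidant element was in 6 (Psmb5, Psmb6, Psmc6, Psmd9, Psmd12 and Psme4), or 17.6%, compared with 12.4% and 17.2%. The interferon element was in 4 (Psmb3, Psmd4, Psmd9 and Psme1), or 11.8%, compared with 3.44% and 4.10%. The CCAAT box was in 13 (38.2%, compared with 37.4% and 43.3%) and the GC box, GGGCGG, in 21 (61.8%, compared with 35.7% and 68.2%). The ETS core occurred in Psmd10, Psmc5, Psmc6, Psmd4, Psme3 and Psme4, which had unadjusted p under 0.05, but not in Psma4, the gene with lower values at that threshold. It was also in Psmd2 and Psmd12, which were lower in αGlu without overlap, and in genes with smaller fold changes, such as Psmc2 (0.08) and Psma5 (-0.07). These matches describe letters in the sequence and were not tested.

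The largest fold change was that of Psmd10 (ENSMUSG00000031429, chrX:140948429-140956728 on the reverse strand of GRCm38), which encodes gankyrin, a chaperone that helps to assemble the 19S base and is also known as an oncoprotein. It was at 22.8, 24.3 and 28.0 CPM in Ctr and 28.7, 70.0 and 78.5 CPM in αGlu 1, 2 and 3. All αGlu libraries were above Ctr, but αGlu 1 exceeded the highest Ctr library only slightly, and αGlu 2 and 3 were far above it. The log2 fold change was 1.24 ± 0.37 (SE), with an adjusted p of 0.160 by edgeR's quasi-likelihood test. Without αGlu 1 it was 1.56 ± 0.11 (adjusted p 0.000159). Over the 6 ways of leaving out 1 library, it ranged from 0.99 to 1.56. The other assembly chaperones had small fold changes. Psmd5 was at 38.8, 35.7 and 35.8 CPM in Ctr and 36.4, 35.4 and 32.1 CPM in αGlu, with a log2 fold change of -0.09 ± 0.08. Psmd9 had a log2 fold change of 0.10 ± 0.07, and both genes overlapped between the groups.

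Among the ATPases, Psmc6 (ENSMUSG00000021832, chr14:45329788-45349705, forward strand) had the highest fold change. It was at 70.7, 76.7 and 81.1 CPM in Ctr and 84.7, 106 and 106 CPM in αGlu, so that the groups did not overlap. Its log2 fold change was 0.38 ± 0.12, with an adjusted p of 0.161 by edgeR's quasi-likelihood test and of 0.00600 without αGlu 1. Psmc3 was the lowest, at 131, 137 and 135 CPM in Ctr and 130, 133 and 133 CPM in αGlu, giving a log2 fold change of -0.03 ± 0.07. These values were indistinguishable within the spread of the libraries. The other 4 ATPases, Psmc1, Psmc2, Psmc4 and Psmc5, had log2 fold changes of 0.30, 0.08, 0.11 and 0.27. The median of the 6 was 0.19, and without αGlu 1 it was 0.28, when 4 of the 6 had an adjusted p under 0.1, beside 49.1% of all genes.

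The other base subunits moved in different directions. Psmd4, a ubiquitin receptor, was at 82.7, 92.9 and 90.7 CPM in Ctr and 95.6, 107 and 108 CPM in αGlu, with a log2 fold change of 0.22 ± 0.09 (adjusted p 0.198, edgeR's quasi-likelihood test). Psmd2, a scaffold that binds shuttle factors, was at 319, 331 and 310 CPM in Ctr and 309, 281 and 260 CPM in αGlu, with a log2 fold change of -0.18 ± 0.11 (adjusted p 0.321). The groups did not overlap for either gene, although αGlu 1 was within 1 CPM of the lowest Ctr library for Psmd2. The second scaffold, Psmd1, overlapped, with a log2 fold change of 0.10 ± 0.12.

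Among the lid genes 6 of 8 had a negative fold change, of which Psmd3, Psmd13 and Psmd14 turned positive when scaled by library size alone, and the median was -0.07. Psmd8 (ENSMUSG00000030591, chr7:29174188-29180701, reverse strand), the most abundant lid transcript per length, was at 295, 306 and 323 CPM in Ctr and 301, 206 and 189 CPM in αGlu. αGlu 1 was within the Ctr range and αGlu 2 and 3 were well below it. The log2 fold change was -0.41 ± 0.19 (adjusted p 0.238, edgeR's quasi-likelihood test) and -0.64 ± 0.09 without αGlu 1 (adjusted p 0.00251). Psmd11 was at the other end, with 57.8, 68.0 and 63.7 CPM in Ctr, 59.9, 72.9 and 66.5 CPM in αGlu, giving a log2 fold change of 0.07 ± 0.10, and its groups overlapped. Psmd14, the deubiquitinase of the lid, had a log2 fold change of -0.07 ± 0.07, and the others, Psmd3, Psmd6, Psmd7, Psmd12 and Psmd13, lay between -0.11 and 0.07.

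In the core, the alpha genes split. Psma4 (ENSMUSG00000032301, chr9:54950790-54958030, forward strand) was at 148, 158 and 173 CPM in Ctr and 139, 120 and 133 CPM in αGlu. It was lower in all αGlu libraries, with a log2 fold change of -0.29 ± 0.10 (adjusted p 0.176, edgeR's quasi-likelihood test) and of -0.34 without αGlu 1. The gene overlaps the protein-coding AY074887 on the opposite strand, and the sources used here do not say whether strand was used in counting, so reads of these genes may not be told apart. In all, 20 of the 41 genes overlap another annotated gene, Psmd8, Psmd10 and Psmc6 not among them. Psma6 was the highest, at 74.6, 80.9 and 85.9 CPM in Ctr and 77.4, 107 and 118 CPM in αGlu. αGlu 1 lay within the Ctr range, and the log2 fold change was 0.33 ± 0.17 (adjusted p 0.265), or 0.48 ± 0.09 without αGlu 1 (adjusted p 0.00844). The other 6 alpha genes, Psma1, Psma2, Psma3, Psma5, Psma7 and Psma8, had log2 fold changes between -0.07 and 0.25. The 4 structural beta genes were all slightly positive, between 0.08 for Psmb2 (77.6, 83.0 and 86.6 CPM in Ctr, 82.5, 91.4 and 87.0 CPM in αGlu) and 0.16 for Psmb1 (97.6, 104 and 104 CPM in Ctr, 103, 117 and 121 CPM in αGlu). Both of these overlapped between the groups, and Psmb3 and Psmb4 lay between them.

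None of the catalytic genes passed the test, and their groups overlapped. Psmb5, the chymotrypsin-like subunit, was at 81.3, 87.1 and 80.8 CPM in Ctr and 80.5, 123 and 103 CPM in αGlu, with a log2 fold change of 0.30 ± 0.16 (adjusted p 0.278, edgeR's quasi-likelihood test). Psmb6, the caspase-like subunit, was at 243, 276 and 245 CPM in Ctr and 256, 253 and 237 CPM in αGlu, with a log2 fold change of -0.04 ± 0.10. Psmb7, the trypsin-like subunit, was at 71.1, 73.1 and 70.6 CPM in Ctr and 67.3, 86.3 and 83.0 CPM in αGlu, with a log2 fold change of 0.14 ± 0.11. For Psmb5 and Psmb7, αGlu 1 was just below every Ctr library while αGlu 2 and 3 were above. Without αGlu 1 the log2 fold changes of these genes were 0.44 (adjusted p 0.0147) and 0.24 (adjusted p 0.0358).

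Since a constitutive and an inducible subunit take the same place in the core, their balance was compared as the log2 ratio of TPM per library, with a pseudocount of 1. Psmb5 over Psmb8 was 0.70, 0.18 and 0.05 in Ctr and -0.16, 0.57 and 0.34 in αGlu, which overlap (difference -0.06, exact permutation test, two-sided, p = 0.9). Psmb6 over Psmb9 was 3.4, 3.01 and 2.64 in Ctr and 2.60, 2.60 and 2.59 in αGlu, which do not overlap (difference -0.42, exact p = 0.1, adjusted over the 3 pairs 0.3). Psmb7 over Psmb10 was -2.58, -3.01 and -2.96 in Ctr and -3.22, -2.02 and -1.96 in αGlu, which overlap (difference 0.45, exact p = 0.4, adjusted 0.6). A comparison of 3 against 3 cannot go below 0.1, so none could pass a threshold of 0.05. Without Ctr 1 the difference for Psmb6 over Psmb9 was -0.22, without αGlu 1 that for Psmb7 over Psmb10 was 0.86, and that for Psmb5 over Psmb8 turned to 0.14 when either of these libraries was left out. The constitutive gene exceeded its inducible partner by 6.0 to 10.5 times for Psmb6, whereas Psmb10 exceeded Psmb7 in every library. Psmb8 and Psmb9 were lowest in Ctr 1, at 171 and 37.1 TPM, the library low in interferon-response genes, and the part of this in the ratios was not tested.

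**Figure D4:**
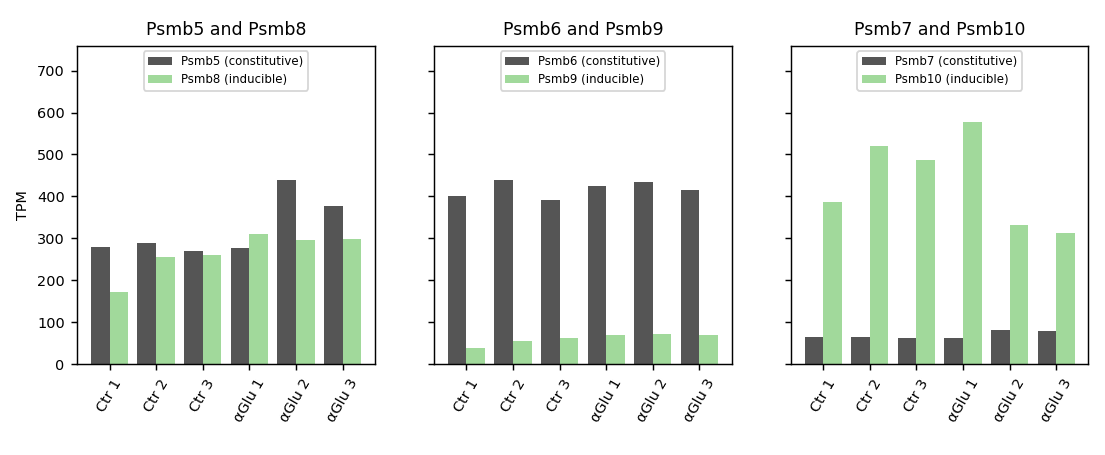
The bars give TPM in each library for the 3 catalytic genes (dark) and their inducible partners (green). Psmb6 stands well above Psmb9 in all 6 libraries, Psmb10 stands above Psmb7, and Psmb5 and Psmb8 are at similar levels.

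The activators formed unlike patterns. Psme4, which encodes PA200 (ENSMUSG00000040850, chr11:30771726-30880361, forward strand), was at 113, 120 and 120 CPM in Ctr and 130, 158 and 159 CPM in αGlu, without overlap, with a log2 fold change of 0.34 ± 0.11 (adjusted p 0.162, edgeR's quasi-likelihood test). Psme3, whose product forms the nuclear PA28 gamma, was at 77.5, 82.5 and 80.7 CPM in Ctr and 87.8, 92.6 and 91.8 CPM in αGlu, with a log2 fold change of 0.18 ± 0.07 (adjusted p 0.190). For both genes, αGlu 1 was above every Ctr library as well.

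The interferon-inducible PA28 genes followed another order. Psme1 was at 176, 277 and 280 CPM in Ctr and 308, 222 and 207 CPM in αGlu, with a log2 fold change of 0.01 ± 0.24. Psme2 was at 156, 229 and 249 CPM in Ctr and 276, 217 and 206 CPM in αGlu, with a log2 fold change of 0.14 ± 0.21. Both genes were lowest in Ctr 1 and highest in αGlu 1, as was the sum of the 16 interferon-response genes. Without Ctr 1 the fold changes were -0.17 and -0.03. Psme2b was at 18.2, 28.3 and 21.7 CPM in Ctr and 30.7, 10.6 and 11.7 CPM in αGlu, with a log2 fold change of -0.37 ± 0.45 and of -1.03 ± 0.19 without αGlu 1 (adjusted p 0.00731, edgeR's quasi-likelihood test). Its transcript was 99.4% identical to that of Psme2 over 794 bases, and it overlaps Gm12185 and 9930111J21Rik1 on its own strand, so the assignment of its reads is uncertain. The part of the interferon-response genes in these values was not tested.

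**Figure D5:**
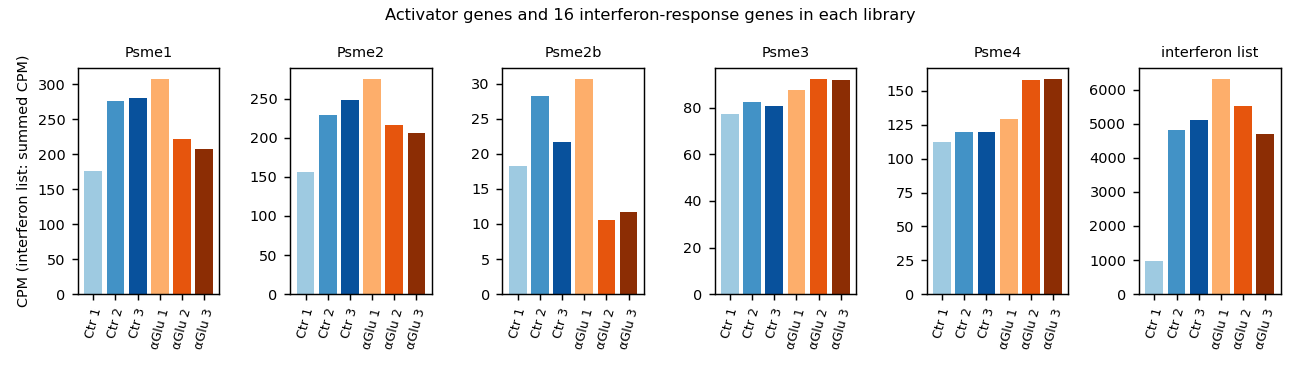
The bars give CPM of the 5 activator genes and the summed CPM of 16 interferon-response genes in each library. Psme1, Psme2 and the interferon genes are lowest in Ctr 1 and highest in αGlu 1, while Psme3 and Psme4 are higher in all αGlu libraries than in any Ctr library.

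Among the genes that work with the proteasome, no list had a member past edgeR's quasi-likelihood test. Of 7 assembly factors and further subunits, 1 had an unadjusted p under 0.05, the lid component Sem1, with 84.9, 85.9 and 82.9 CPM in Ctr, 92.6, 95.6 and 107 CPM in αGlu, giving a log2 fold change of 0.22 ± 0.08. The core chaperone Psmg3 had one of 0.21 ± 0.10, and the groups did not overlap for either gene. Of 7 regulators of proteasome genes none had an unadjusted p under 0.05. The smallest p were those of Sel1l and Ddi2, the latter a protease that activates Nfe2l1, with log2 fold changes of -0.47 ± 0.20 and -0.40 ± 0.18 and an overlap between the groups. Without αGlu 1 these were -0.73 (adjusted p 0.00185, edgeR's quasi-likelihood test) and -0.61 (adjusted p 0.00647), and 3 of the 7 regulators were lower and 1 higher at an adjusted p under 0.1, beside 25.6% and 23.5% of all genes.

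Of 7 proteasome-bound factors, the deubiquitinase Usp14 alone had an unadjusted p under 0.05. It was at 108, 95.7 and 110 CPM in Ctr and 97.2, 64.6 and 67.9 CPM in αGlu, where αGlu 1 was within the Ctr range, and the log2 fold change was -0.45 ± 0.17. Zfand5, a factor that stimulates the 26S proteasome, had a log2 fold change of -0.70 ± 0.31, and of -1.15 without αGlu 1 (adjusted p 0.000670, edgeR's quasi-likelihood test). Of 8 shuttle and unfoldase genes, Ubqln2 and Vcp were at an unadjusted p under 0.05, with log2 fold changes of -0.48 ± 0.15 and -0.29 ± 0.11, and both were lower in all αGlu libraries. Vcp, the ATPase that extracts ubiquitylated proteins, was at 538, 486 and 467 CPM in Ctr and 417, 391 and 411 CPM in αGlu. Of 6 ubiquitin and activation genes, the ubiquitin-activating enzyme Uba6 was at an unadjusted p under 0.05, with a log2 fold change of -0.27 ± 0.09. Over these 5 lists of 35 genes, 1 gene (2.86%) was higher and 5 (14.3%) were lower at an unadjusted p under 0.05, beside 12.7% and 11.9% of all genes.

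The 16 interferon-response genes had no member at an unadjusted p under 0.05. Usp18, which removes the ubiquitin-like modifier ISG15 from proteins, was at 18.6, 83.1 and 94.5 CPM in Ctr and 99, 148 and 142 CPM in αGlu. It was higher in all αGlu libraries and had its lowest value in Ctr 1, and its log2 fold change was 0.99 ± 0.57.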

How the data were processed

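Messenger RNA of 6 libraries (3 Ctr, 3 αGlu) was analysed from 1 deposited gene table. The authors made stranded mRNA libraries, and their reads went through the QIAGEN RNA-seq Analysis Portal. The genome build was GRCm38 per the submitters' processing notes, while for the aligner, the annotation and reads that match several genes nothing was given in the sources used here. The counts that the authors deposited are integers, 1 per gene and library, and are not normalized. The deposited TPM values are scaled by length to a common library total, and the deposited RPKM values, scaled by length and depth, served as an alternative. A further 6 deposited columns of CPM were not used.

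Counts were filtered with filterByExpr (minimum count 10, minimum total 15), scaled with TMM factors and fitted with the quasi-likelihood model of edgeR 4.0.16 in R 4.3.3, with the group as the only term, over all 11933 genes that passed. Two-sided p-values were adjusted by the method of Benjamini and Hochberg. Calls required an absolute log2 fold change (αGlu over Ctr) above 1 beside an adjusted p under 0.1. Subunit pairs were compared on TPM with exact permutation tests. The models were tested on simulated counts with 200 of 11933 genes changed, at an adjusted p under 0.1. These counts were drawn for each gene on its own from edgeR's estimates of spread, and no library was set apart from its group. At the spread of all 6 libraries, edgeR recovered 45% of 2-fold and 86% of 4-fold changes, with 10% and 10.4% false calls. DESeq2 recovered 71% and 90.5%, with 35.5% and 38.0% false calls. At the spread of the Ctr libraries, false calls were 13.3% and 13.5% for edgeR and 22.7% for DESeq2 at both fold changes. At a depth of 17912831 to 30386653 reads, genes near 1 CPM, such as Psma8 and Psmc3ip, rest on few reads and are imprecise.

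Alternatives were DESeq2 1.42.0, limma 3.58.1 (voom), library size alone, relative log expression factors, other filters on low counts, other thresholds, other scales and pseudocounts for the pairs, the replicate number as a block, and each library left out in turn. The members and the gene lists were chosen with earlier results of these data known. Values in every library were given for the catalytic genes, the activators, the 3 genes with the smallest p, and the genes with the highest and lowest fold change of each role with at least 3 members. Of each related list the 2 genes with the smallest p were named, except for some that are not reported here. Coordinates were taken from GENCODE M21 (GRCm38), which held all 41 gene identifiers, and promoters from RefSeq.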

Additional observations from a re-analysis of the deposited data

How the results depend on the processing

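The comparison is limited by 3 libraries a group and by αGlu 1. The number of proteasome genes past the test was 0, and DESeq2 gave 1. Leaving out 1 library gave 0 to 2, the 2 being without αGlu 1. The number at an unadjusted p under 0.05 was 7 and ranged from 1 to 19 when 1 library was left out, with 19 without αGlu 1 (49.3% of all genes), 1 without αGlu 2, αGlu 3 or Ctr 1 (11.7%, 11.6% and 14% of all genes), 2 without Ctr 2 (14.2%) and 4 without Ctr 3 (17.1%). Counting an adjusted p under 0.1 with no fold limit and without αGlu 1, a setting chosen after seeing the data, gave 19. Genes without overlap between the groups numbered 13 (31.7%, beside 30.2% of all genes), and 14 to 28 when 1 library was left out, beside 33.8% to 65.9% of all genes. The 28, or 68.3%, were without αGlu 1, where the share of all genes was 65.9%. The median log2 fold change was 0.08, ranged from 0.06 to 0.11 when 1 library was left out, was 0.17 when scaled by library size alone, and stayed positive under every alternative run. Related pathway genes past the test numbered 0 to 2, the 2, with Zfand5 among them, without αGlu 1. The difference for Psmb5 over Psmb8 ranged from -0.22 to 0.14 and was positive without Ctr 1 and without αGlu 1, at 0.14 in both. For Psmb6 over Psmb9 it ranged from -0.60 to -0.22, the latter without Ctr 1, and for Psmb7 over Psmb10 from 0.23 without αGlu 3 to 0.86 without αGlu 1.

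Same-numbered Ctr and αGlu libraries correlated in their deviations at 0.076, 0.065 and 0.15. Each library correlated best with its own number, the highest value between different numbers being 0.046, which hints at pairing. For the fragment level in transfected macrophages the study used a paired t-test, but it states no pairing for the sequenced libraries. Not all same-number values were above 0.1, and the labels name no shared animal or day. Whether the numbers pair the samples is therefore not known, and the fit with the group alone was kept as the main one. In the fit with a block for the replicate number, the test called 0 proteasome genes and 17 genes in all (0.142%), 7 proteasome genes had an unadjusted p under 0.05 (17.1%, beside 23.9% of all genes) and the median was 0.08. These 7 were all higher in αGlu, with Psma1, Psma2 and Psmc1 in place of Psma4, Psmc5 and Psme3. The differences of the subunit pairs, -0.06, -0.42 and 0.45, are the same by construction, and their paired exact p were 1, 0.25 and 0.5. With 3 pairs of libraries this paired test cannot go below 0.25, so none could pass a threshold of 0.05.

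Some single genes changed sign. Scaled by library size alone, the log2 fold change was 0.0583 for Psmc3, 0.00850 for Psmd13, 0.0190 for Psmd14, 0.0676 for Psmd3, 0.0140 for Psma5, 0.0743 for Psma8, 0.0483 for Psmb6 and 0.0693 for Psmc3ip. With 1 library left out it ranged from -0.0453 to 0.00529 for Psmd3, -0.15 to 0.13 for Psma8, -0.0164 to 0.0362 for Psma7, -0.0670 to 0.0218 for Psmb6, -0.19 to 0.12 for Psme1, -0.0279 to 0.27 for Psme2 and -0.23 to 0.17 for Psmc3ip. Among the alternative values of the 41 genes, 508 kept direction and side of the threshold, 22 changed sign and 3 passed it, of which 2 were Psmd10 and 1 was Psme2b. The cause of these changes was not tested.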
